A study of Mus musculus with 16 samples.

Results

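The cells described are 321 cell barcodes with the transcript signature of type 2 conventional dendritic cells (cDC2), drawn from mouse B16 melanomas. They were taken from 99357 barcodes with 200 or more genes and no more than 10% mitochondrial counts. They make up 0.323% of those barcodes. A barcode was a member if it had at least 1 unique molecular identifier (UMI, 1 counted transcript molecule) of Flt3 and at least 1 of Cd209a, Clec10a or Mgl2. It also had none of Xcr1, Clec9a, Ccr7, Cd3d and Cd3e, at most 1 of Siglech and at most 5 of C1qa, C1qb and C1qc together. The cells were thus selected on measured levels of these 13 genes, which are given as a description and support nothing.

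The study profiled CD45-selected cells of subcutaneous tumours by droplet single-cell RNA sequencing on 8 lanes. C57BL/6J mice carried either control or B2m-null cells of Bro4.1 B16, a derivative of the B16 melanoma line, with 1000000 cells implanted per mouse. Antibody (100 µg) was injected intraperitoneally at days 6, 9 and 12, and tumours were taken at day 14. The antibody was anti-CD40 (the CD40 groups) or a rat IgG2a isotype control. The 4 groups are named by tumour and antibody. Each lane held a pool of mice marked by hashtag antibodies. Control isotype and both B2m-null groups had 2 pools each. The 2 control CD40 lanes are labelled technical replicates and were taken as 1 pool, so this group has no replicate pool. The labels attach the genotype to the mouse and the design text attaches it to the implanted cells. The latter was followed, and on that reading the dendritic cells are host cells with B2m in every group. The labels give neither the age nor the sex of the mice, nor whether the B2m-null line is 1 clone.

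Conventional dendritic cells are short-lived antigen-presenting cells whose growth depends on the cytokine receptor FLT3. The cDC2 branch, marked by SIRPα, CD11b and the lectins encoded by Cd209a, Clec10a and Mgl2, presents antigen on MHC class II to CD4 T cells. The cDC1 branch, marked by XCR1 and CLEC9A, is known for passing tumour antigen to CD8 T cells on MHC class I. CD40 is a receptor on dendritic cells and other antigen-presenting cells, and an agonist antibody to it acts in place of the ligand on helper T cells. Activated dendritic cells of either branch raise CCR7, which leads them to lymph nodes, and the membership rule leaves such cells out.

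The lanes held 46.0 to 99.3 M UMIs (M, 1000000) each, and no pair of lanes shared more than 92 barcodes (0.623% of the smaller lane). In tumour cells carried through the sort (at least 20 UMIs of 7 melanocyte genes and none of Ptprc), B2m stood at 945 to 2003 CPM (UMIs per 1000000 UMIs of the summed cells) in the 4 control lanes. It stood at 166 to 426 CPM in the 4 B2m-null lanes, below every control lane. In the cDC2, B2m stood at 2297 and 2263 CPM in control isotype and 3992 CPM in control CD40. In the B2m-null groups it stood at 2092 and 1990 CPM under isotype and 2768 and 2381 CPM under CD40. CD45 transcript (Ptprc) was seen in 302 of the 321 cDC2, or 94.1%. Hashtags marked 21 of them, or 6.54%, as doublets of different mice. These were kept, because the membership rule does not use hashtags, and were removed only in an alternative.

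The cDC2 were spread unevenly over the groups, with 115 in control isotype, 185 in B2m-null isotype, 17 in B2m-null CD40 and 4 in control CD40. Their median depth was 3524 UMIs, against 3048 for all other barcodes. Summed over cells they held 548837 UMIs in control isotype, 796532 in B2m-null isotype, 77703 in B2m-null CD40 and 12275 in control CD40. One UMI was therefore worth 81.5 CPM in the control CD40 pool, 55.4 and 16.8 CPM in the B2m-null CD40 replicates, and 1.81 to 4.08 CPM in the isotype lanes. Genes near or below those levels may have no UMI under CD40 although they are expressed.

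Markers that the rule did not use were compared with those of 4 other gated sets: 856 cDC1, 1514 mature dendritic cells, 6740 monocytes and 21757 T cells. No test was made, since gates set on transcripts differ by construction. Sirpa, the receptor that defines the branch, had a UMI in 58.9% of cDC2 and 21.4% of cDC1, but in 66.4% of monocytes and 26.4% of T cells. Itgam, which encodes CD11b, followed the same order with 44.5%, 15.7%, 63.4% and 21.4%. Median depths were 3524 UMIs for cDC2, 5746 for cDC1, 2857 for monocytes and 3181 for T cells. T cell values are given for comparison. They are not a measure of free RNA, which was not measured, and T cells also express some of these genes. Irf4, a transcription factor of the cDC2 branch, was seen in 12.8% of cDC2, 1.9% of cDC1 and 6.0% of T cells, and averaged 34.5 CPM ± 3.6 (SD, n = 4 isotype lanes) against 3.3 ± 1.1 in cDC1. Esam was seen in 0.6% of cDC2 and 0.3% of T cells, and Clec4a4 in 0 of 321 cDC2, which allows a share of cells with a UMI, not of cells expressing the gene, of up to 0.935%.

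Several genes seen in both cDC2 and cDC1 were lower in monocytes. Zbtb46, the transcription factor of the conventional lineage, was seen in 15.0% of cDC2, 31.8% of cDC1, 1.5% of monocytes and 2.7% of T cells. Bcl11a averaged 272 CPM ± 34.6 in the 4 isotype lanes against 90.4 ± 14.2 in cDC1 and 50.7 ± 9.8 in monocytes, and over all lanes stood at 23.3 CPM in mature dendritic cells. Kmo, an enzyme of tryptophan breakdown, was seen in 48.3%, 51.5%, 5.3% and 3.5% of the same 4 sets, and Dpp4 in 40.2%, 54.8%, 5.1% and 14.8%. The class II transactivator Ciita was seen in 52.6%, 65.7% and 15.9%, and in 9.3% of T cells. The MHC class II gene H2-Aa averaged 4633 CPM ± 1119 in cDC2, 5744 ± 561 in cDC1 and 1653 ± 271 in monocytes.

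Monocyte genes were also present. Ccr2, the receptor for CCL2, was seen in 71.3% of cDC2, 70.6% of cDC1, 76.3% of monocytes and 43.2% of T cells. Plac8 averaged 2108 CPM ± 574 in cDC2 against 2911 ± 635 in monocytes, and Ms4a4c 517 ± 53.7 against 665 ± 211. Markers nearer to the inflammatory monocyte were lower, with Chil3 in 8.7% of cDC2, 55.3% of monocytes and 5.6% of T cells and Vcan in 9.3%, 56.9% and 6.3%. The monocyte set was gated on Ly6c2, Chil3 and Vcan, so its levels of these genes were set by its gate and support nothing. Ly6c2, at 143 CPM ± 30.9, stood below the 180 ± 19.7 of T cells. Whether some members are monocyte-derived cells cannot be told from these markers. Of the markers of the mature state, Fscn1 and Il12b were near absent. Fscn1 was seen in 1.9% of cDC2, 84.7% of mature dendritic cells and 2.9% of T cells, and Il12b in 0 of 321 cDC2, 22.7% and 0.8%. Both cDC2 shares lie below those of T cells. The mature set was gated on Ccr7 with Fscn1 or Ccl22, so its share of Fscn1 was set by its gate. Il4i1, in 16.5% of cDC2, 1.1% of cDC1, 55.6% of mature dendritic cells and 2.5% of T cells, was an exception. Tcf4, a factor of plasmacytoid dendritic cells, was seen in 59.8% of cDC2, 29.2% of cDC1 and 16.0% of T cells. No plasmacytoid set was compared, and the rule admits 1 UMI of Siglech. Of the cDC1 markers outside the rule, only Naaa and Irf8 are described here, without their levels in cDC1. Naaa stood at 375 CPM in isotype cDC2 with Cd209a and 714 CPM in those without it. Irf8 stood at 148 and 391 CPM in the same cells. Naaa was near equal in B2m-null isotype replicate 2 (366 and 374 CPM), and Irf8 in control isotype replicate 2 (87.9 and 92.4 CPM). The markers were mixed, and the label of cDC2 was kept as the name of the cells that met the rule.

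**Figure D1:**
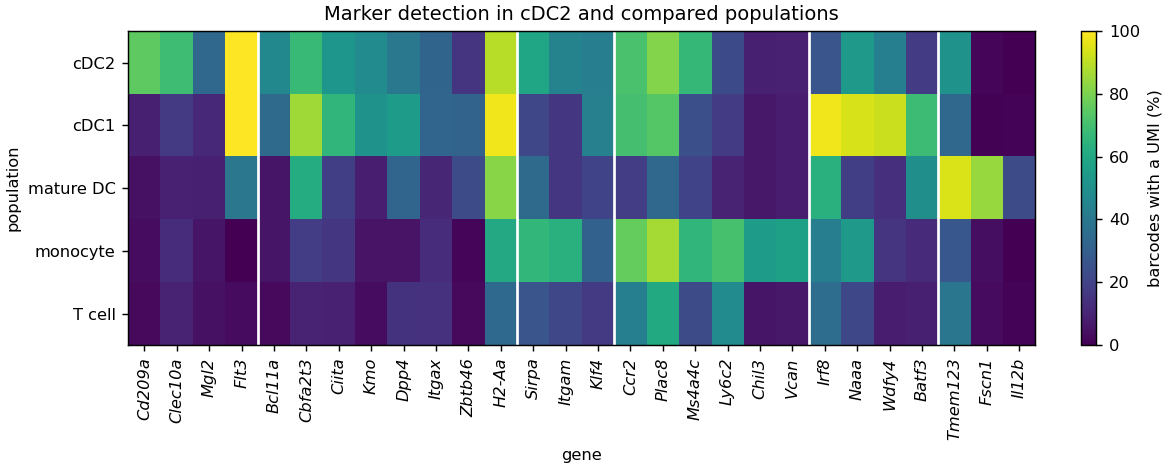
Share of barcodes with at least 1 UMI of each marker (colour, percent) for cDC2 and the 4 other gated sets (rows), with white lines between groups of markers (columns). Sirpa and Itgam are bright in cDC2 and monocytes, Ciita, Kmo and Dpp4 in cDC2 and cDC1, and Fscn1 in mature dendritic cells (84.7%). The gate of the mature set used Fscn1, and that of the monocytes used Ly6c2, Chil3 and Vcan.

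Outside the rule, the gene with the highest ratio between cDC2 and all other barcodes was Cyp7b1, an oxysterol hydroxylase, at 108 against 2.77 CPM. It was higher in 6 of the 8 lanes. Cd209d, a neighbour of Cd209a in the same lectin family, stood at 263 against 10.6 CPM, and reads of such near copies may be split. Next came Bcl11a at 262 against 14.5 CPM, Cdh1 (E-cadherin) at 124 against 7.37 CPM, although higher in 4 of the 8 lanes, Kmo at 206 against 13.2 CPM and Ifitm1 at 974 against 74.3 CPM. H2-DMb2, a class II peptide-loading chain, stood at 147 against 11.8 CPM, and the aspartic protease Napsa at 672 against 70.7 CPM. Hbb-bs, Hba-a1, Hbb-bt and Acta2 also ranked among the 20 highest but were higher in 1 or 2 of the 8 lanes. Of the 321 cDC2 only 4 and 17 come from the control and B2m-null CD40 lanes, while the other barcodes come from all 8. The part of this difference in the ratios was not tested.

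The 3 lectins of the rule marked overlapping subsets. Cd209a was seen in 241 of the 321 cDC2, alone among the 3 in 70, with Clec10a in 88, with Mgl2 in 15 and with both in 68. Of the members without Cd209a, 54 had Clec10a alone, 15 Mgl2 alone and 11 both. In the isotype lanes the 232 cells with Cd209a were set beside the 68 without it, over 270 genes of the marker and pathway lists with at least 50 UMIs. In all 4 lanes 15 of these genes were higher in the cells with Cd209a and 30 were lower, and the rest did not keep 1 direction. The largest ratios among the higher genes were those of Tnip3 (273 against 122 CPM), H2-DMb1 (533 against 265) and Hspd1 (232 against 122). Among the lower genes they were those of Ctsd (281 against 789 CPM), Cxcl16 (55.2 against 153) and Irf8 (148 against 391). The size of the gap varied by lane. Ctsd stood at 238 against 1229 CPM in B2m-null isotype replicate 2, but at 253 against 412, 273 against 308 and 423 against 475 CPM in the others. Irf8 stood at 87.9 against 92.4 CPM in control isotype replicate 2. The genes of both directions were named after their values were seen, and the values are descriptions within cells selected on the same lectins, with no test.

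The rule's thresholds fell within a continuum. The lectins summed to 1 UMI in 70 members, or 21.8%, and 270 barcodes met every other condition with 0. Flt3 stood at exactly 1 UMI in 241 members, or 75.1%, and 4745 barcodes were left out by having none. At the limit on C1q, 16 members held 3 to 5 UMIs and 17 barcodes just outside held 6 to 8.

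The first comparison asked how abundant cDC2 were under each antibody and in each tumour. Fewer were recovered under CD40 in both tumours. Among barcodes with an assigned hashtag, cDC2 made up 0.317%, 0.540%, 0.254%, 0.542% and 0.555% in the 5 mice of control isotype. In the 2 mice of control CD40 they made up 0.0466% and 0.00621%, below every isotype mouse. The means were 0.0264% ± 0.0285 (SD, n = 2) and 0.441% ± 0.144 (SD, n = 5), a ratio of 16.7. With Flt3 not required the lectin-positive share was 1.89% ± 0.264 under CD40 and 6.14% ± 1.78 under isotype, a far smaller relative difference. In a two-sided exact permutation test p was 0.0952, which is as low as 2 against 5 mice can give, and 0.127 after Benjamini-Hochberg adjustment over 4 comparisons. Here and in the share tests below each mouse was taken as a unit. Mice of the same pool shared a lane and an antibody, and the tests do not account for this. Both control CD40 mice came from the same pool.

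In B2m-null tumours cDC2 made up 0.457%, 0.662%, 0.856%, 0.834% and 0.528% in the 5 isotype mice. They made up 0.0745%, 0.0261%, 0.0755% and 0.139% in the 4 CD40 mice, again without overlap. The means were 0.667% ± 0.178 (SD, n = 5) and 0.0787% ± 0.0462 (SD, n = 4), a ratio of 8.47, with an exact permutation p of 0.0159, the smallest possible, and an adjusted p of 0.0635. These mice came from 2 pools per antibody, so the p measures spread between mice and not between pools. With Flt3 not required the shares were 10.2% ± 3.57 and 2.58% ± 0.832, again closer in relative terms. After every barcode was thinned to 1000 UMIs before the rule, the difference was -0.419 percentage points, again without overlap, and the exact permutation p stayed at the smallest possible value of 0.0159. Thinning left out barcodes that were shallower, keeping for example 23247 of 26308 in control isotype and 20135 of 26490 in control CD40. The thinned share was 0.168% of barcodes in control isotype and 0.00993% in control CD40.

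Under isotype, the mean share was 1.51-fold higher in B2m-null than in control tumours, but the mice overlapped and the exact permutation p was 0.0794 (adjusted 0.127). The difference was 0.226 percentage points, and 0.119 without control isotype replicate 1 and 0.297 without replicate 2. With thinned barcodes it was 0.276 percentage points (exact permutation p = 0.0238, adjusted 0.0476). Over all thinned barcodes of a lane the share was 0.577% in B2m-null replicate 1, where most cDC2 had no hashtag, but 0.218% in replicate 2, against 0.183% and 0.146% in the control lanes. Under CD40 the 2 tumours gave an exact permutation p of 0.267, where 0.133 is the smallest possible. The CD40 effect did not differ detectably between tumours, with a difference of -0.174 percentage points (exact permutation p = 0.190) or 0.98 in the log2 ratio of means (p = 0.396).

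Counted over all barcodes of a lane, cDC2 made up 0.358% (95% Wilson interval 0.276 to 0.464) and 0.554% (0.430 to 0.714) in control isotype. The control CD40 lanes held 0.0233% (0.0079 to 0.0685) and 0.0073%. The B2m-null lanes held 0.807% (0.663 to 0.983) and 0.738% (0.599 to 0.910) under isotype, and 0.056% and 0.0922% under CD40. The intervals cover counting error only, and mice of 1 pool share a lane.

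A lower share can mean fewer cells, less Flt3 or lectin RNA per cell, or more cells of other types, and these cannot be told apart here. Barcodes with Flt3, before any other condition, were already 5.84% of control isotype and 0.359% of control CD40, and 7.10% and 0.760% of the B2m-null groups. The other dendritic sets and, in control tumours, monocytes were lower under CD40 as well. In control tumours cDC1 made up 1.14% and 1.92% of barcodes in the isotype lanes and 0.070% and 0.088% in the CD40 lanes, and mature dendritic cells 2.31% and 2.55% against 0.101% and 0.088%. In B2m-null tumours cDC1 made up 1.80% and 1.65% against 0.177% and 0.176%, and mature dendritic cells 3.89% and 2.49% against 0.607% and 0.218%. Monocytes made up 10.4% and 7.76% against 1.78% and 1.40% in control tumours. In B2m-null tumours they made up 9.06% and 10.98% against 9.01% and 4.25%. T cells took 16.1% and 13.5% of control isotype lanes and 36.7% and 27.6% of control CD40 lanes. In B2m-null tumours they took 5.02% and 12.0% of isotype lanes and 21.0% and 42.3% of CD40 lanes. The part of these shifts in the cDC2 share was not tested.

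**Figure D2:**
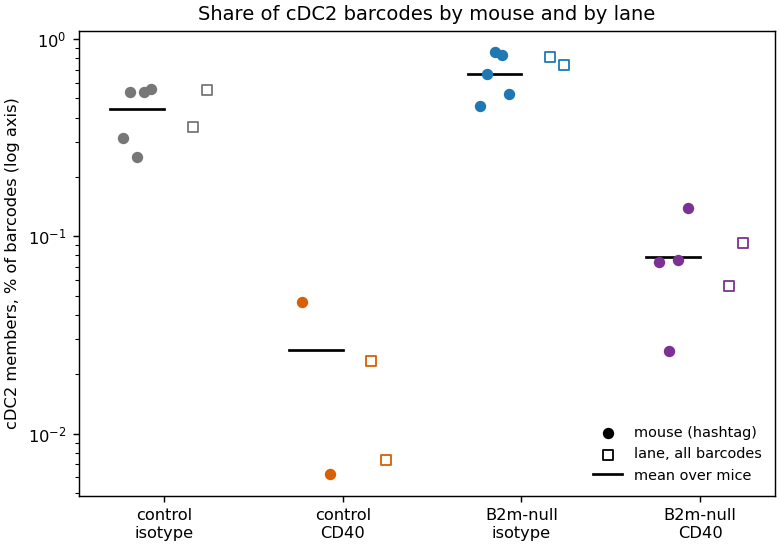
cDC2 as a percentage of barcodes (logarithmic axis) by group: filled points are mice given by hashtag, lines their mean and open squares lanes with all barcodes. All 5 isotype mice lie above all CD40 mice in both tumours, and the isotype mice of the 2 tumours overlap.

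Expression was then compared on UMIs summed over the cDC2 of each lane, with 7 samples in 4 groups, edgeR's quasi-likelihood test and Benjamini-Hochberg adjustment over 6346 genes. The first such comparison was CD40 against isotype in B2m-null tumours, which rests on 6 and 11 cells under CD40. Chemokine genes such as Cxcl2 and Ccl2, the receptor gene Ccr2 and the cathepsin genes Ctsb, Ctsd and Ctsl were lower under CD40, and 4 genes were higher. In all, 47 genes passed, or 0.741% of those tested, with 43 lower (0.678%) and 4 higher (0.063%). Of the 47, 17 belong to the lists of markers and pathways and 30 do not. One of them, Cd209a, was used by the rule and is left aside below. Cd209d and Cd209e, of the same lectin family, also passed, both lower, and reads of such near copies may be split. The median over all genes was -0.26 on the log2 scale, and each change should be read against it.

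Of the 16 tested genes of the chemokine list, 3 passed, all lower, with a list median of -1.41. Pf4, a chemokine outside that list, also passed, at 200 and 381 CPM under isotype and 0 and 16.8 CPM under CD40 (adjusted p = 1.11e-05). Cxcl2 (ENSMUSG00000058427), a neutrophil attractant, stood at 644 and 600 CPM in the isotype lanes and at 0 and 50.3 CPM in the CD40 lanes. The CD40 lanes lay far below both isotype lanes, with 3 UMIs against 489. This is a ratio of 15.9 with a counting interval of 5.41 to 77.4 (adjusted p = 4.87e-08, edgeR). Ccl2, the ligand of CCR2, stood at 550 and 337 CPM against 111 and 117 CPM (log2 change -2.05 ± 0.50 SE, adjusted p = 0.00802). Ccl7, another CCR2 ligand, had 204 UMIs under isotype and 3 under CD40, a ratio of 6.63 (2.24 to 32.4, adjusted p = 0.00254). With genes lacking UMIs in 1 group held at 3 UMIs, the median of the list was -1.01 and that of all genes 0.0. In all other barcodes Cxcl2 stood at 1448 and 1572 CPM under isotype and 1815 and 1515 CPM under CD40, without a fall.

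The promoter of Cxcl2 is shown because this gene had the lowest adjusted p of the chemokine list. The sequence is from RefSeq (GRCm38.p6, chr5:90903649-90903948, plus strand, 250 bases before to 50 after the start).

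Cxcl2 promoter: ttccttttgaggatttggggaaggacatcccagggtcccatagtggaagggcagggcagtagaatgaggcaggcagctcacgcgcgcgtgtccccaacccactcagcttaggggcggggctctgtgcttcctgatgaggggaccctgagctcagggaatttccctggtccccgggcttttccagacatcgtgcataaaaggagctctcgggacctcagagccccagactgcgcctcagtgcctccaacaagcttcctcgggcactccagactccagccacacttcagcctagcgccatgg

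The gamma-activated site, searched on both strands as TTCNNNGAA, had no match in this window. Of 32544 promoter windows of 300 bases, 8.33% hold at least 1 match.

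Of 10 monocyte markers tested Ccr2 and Chil3 passed, with all 10 estimates negative (62.1% over all genes tested) and a median of -2.50. Ccr2 stood at 881 and 671 CPM under isotype and 221 and 168 CPM under CD40, without overlap (log2 change -2.22 ± 0.44 SE, adjusted p = 0.000292). Chil3, which encodes a chitinase-like protein, was at 0 in both CD40 lanes against 103 UMIs, at least 3.35-fold lower. Of 10 macrophage markers Apoe and Mrc1 passed, with a median of -2.17. The macrophage list holds C1qa, C1qb and C1qc, which are capped by the rule, so its medians are descriptions and support nothing. Apoe, a lipid carrier, had 1 UMI against 179, a ratio of 17.5 with a counting interval of 3.09 to 694. Mrc1, the mannose receptor, stood at 342 and 181 CPM against 0 and 67.1 CPM (adjusted p = 0.0104). With genes at 0 held at 3 UMIs the medians were -0.89 and -1.60.

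Summed over 13 macrophage markers, the cDC2 held 1374 and 920 CPM in B2m-null isotype and 111 and 319 CPM in B2m-null CD40, with 11 and 4 of the genes at 0 in the CD40 lanes. C1qa, C1qb and C1qc, which the rule caps, are part of this sum. The 10 monocyte markers summed to 3898 and 3352 CPM against 3156 and 2314 CPM, with 7 and 3 at 0. In all other barcodes Ccr2 was also lower under CD40, at 202 and 188 CPM against 383 and 316 CPM. Cells with and without Cd209a numbered 3 and 3, and 4 and 7, in the B2m-null CD40 lanes. Under isotype they numbered 72 and 26, and 69 and 18. Over the isotype lanes of both tumours Ccr2 stood at 739 CPM in cells with Cd209a and 493 CPM in those without. Ctsd and Lgmn went the other way, at 281 against 789 and 326 against 653 CPM. The Ctsd gap was widest in B2m-null isotype replicate 2, at 238 against 1229 CPM. The part of macrophages, monocytes, RNA free in the suspension or the mix of cells with and without Cd209a in the lower genes was not tested.

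Of 18 lysosomal genes 3 passed, all cathepsins and all lower, with a list median of -0.82, or -0.47 with genes at 0 held at 3 UMIs. Summed over the 19 genes of the list, the cDC2 held 14776 and 14590 CPM under isotype and 9190 and 16247 CPM under CD40, which overlap. Ctsb stood at 836 and 666 CPM under isotype and 0 and 268 CPM under CD40 (log2 change -2.06 ± 0.42 SE, adjusted p = 0.000706). Ctsd stood at 436 and 488 CPM against 111 and 134 CPM (adjusted p = 0.00708). Ctsl stood at 236 and 727 CPM against 0 and 33.5 CPM, with 2 UMIs under CD40 and 459 under isotype. The pooled ratio was 22.4 (6.16 to 185), an interval that covers counting error only. Of the 459 UMIs, 401 came from isotype replicate 2. Lgmn, a lysosomal protease that trims class II antigens, stood at 673 and 370 CPM against 55.4 and 67.1 CPM (log2 change -3.11 ± 0.55 SE, adjusted p = 1.77e-05).

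Some of the lower genes had no UMI in either CD40 lane, so the bound is set by 3 UMIs over the group. Thbs1 (thrombospondin 1) stood at 200 and 419 CPM under isotype and was at least 9.10-fold lower. Lpl (lipoprotein lipase) was at least 5.98-fold lower, Hmox1 (heme oxygenase 1) 5.53-fold, Fn1 (fibronectin) 4.52-fold, Cdh1 3.93-fold, Nr4a3 3.48-fold and the scavenger receptor Cd36 3.12-fold, each as a lower bound. Ube2c was the cell cycle gene that passed, of 19 tested, and was at least 2.67-fold lower. Thbs1 was also lower in all other barcodes, at 186 and 195 CPM under CD40 against 483 and 599 CPM. Gm42418, a gene model that overlaps ribosomal RNA sequence, stood at 6063 and 4676 CPM against 1329 and 905 CPM (log2 change -2.54, adjusted p = 2.15e-10). It fell in all other barcodes too, from 6357 and 6161 CPM to 1684 and 1698 CPM.

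The 4 genes that were higher under CD40 are Iigp1, Dut, H2-Q7 and H2-Oa. Iigp1, an interferon-inducible GTPase, stood at 16.3 and 30.8 CPM under isotype and 111 and 201 CPM under CD40 (log2 change 2.61 ± 0.59 SE, adjusted p = 0.0039). Dut, an enzyme of nucleotide metabolism, stood at 40.8 and 49.0 CPM against 277 and 252 CPM (log2 change 2.32 ± 0.51 SE, adjusted p = 0.00247). Neither gene overlapped between the groups, but the CD40 values rest on 2 and 12 UMIs for Iigp1 and 5 and 15 for Dut. H2-Q7, a non-classical class I gene that shares sequence with its neighbours, stood at 126 and 122 CPM against 166 and 537 CPM (adjusted p = 0.0069). H2-Oa, a chain of the class II regulator HLA-DO, stood at 65.2 and 105 CPM against 111 and 369 CPM (adjusted p = 0.0496). For both, the second CD40 replicate (32 and 22 UMIs) was far higher than the first (3 and 2 UMIs). Without the second replicate their log2 changes turned to -0.085 and -0.20. Of 17 settings tried for CD40 in B2m-null tumours, Cxcl2 and Ccr2 kept their calls in 15, Ctsb in 14, Thbs1, Fn1, Nr4a3, Lgmn and Chil3 in 13, Cdh1 and Apoe in 12 and Lpl and Hmox1 in 11. Iigp1, Dut, H2-Q7, Ccl7 and Ctsd kept theirs in 10, Cd36 in 9, Ccl2, Mrc1 and Ube2c in 8 and H2-Oa and Ctsl in 7.

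Antigen presentation genes otherwise did not pass. Of 22 MHC class I genes 1 passed, 21 estimates were positive (37.8% over all genes tested) and the median was 0.59. Of 15 class II genes 1 was higher and 1 lower, with a median of 0.42. H2-Ab1, a class II chain, stood at 5117 and 6423 CPM under isotype and 8803 and 9490 CPM under CD40, without overlap, but did not pass (log2 change 0.46 ± 0.29 SE, adjusted p = 0.608). None of 24 genes of CD40 and NF-kB signalling and none of 11 costimulatory or inhibitory ligands passed. The rule leaves out cells with Ccr7, which activated dendritic cells raise, so these counts do not cover such cells. Cd40 itself stood at 89.7 and 65.3 CPM against 55.4 and 50.3 CPM, the levels of 1 and 3 UMIs. Cd80 stood at 28.5 and 38.1 CPM against 111 and 101 CPM (adjusted p = 0.461) and Cd86 at 130 and 116 CPM against 55.4 and 101 CPM (adjusted p = 0.781). None of 21 type I interferon-stimulated genes passed, with a median of -0.76, or -0.23 with genes at 0 held at 3 UMIs.

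The genes that define or steer the branch did not pass either, with none of 20 dendritic transcription factors and growth factor receptors called (median -0.66, or -0.44 with genes at 0 held at 3 UMIs). Irf4 had no UMI under CD40, where 3 UMIs are worth 38.6 CPM, against 37.7 CPM over the isotype cells, so no fold can be given. Irf8 stood at 77.2 CPM over the CD40 cells and 192 CPM over the isotype cells (adjusted p = 0.336). Zbtb46 stood at 90.1 CPM against 41.4 CPM (adjusted p = 0.664) and Sirpa at 270 CPM against 331 CPM (adjusted p = 0.699). Kit, the stem cell factor receptor, stood at 103 CPM against 74.1 CPM (adjusted p = 0.937) and Itgax, which encodes CD11c, at 103 CPM against 117 CPM (adjusted p = 0.934). Il1b, an inflammatory cytokine, stood at 277 and 268 CPM under CD40 and 281 and 354 CPM under isotype (adjusted p = 0.801). Cd274, which encodes PD-L1, had 2 UMIs under CD40 and 84 under isotype, a ratio of 4.10 (1.10 to 34.4) that did not pass (adjusted p = 0.291). The interferon-inducible chemokine Cxcl9 stood at 55.4 and 285 CPM under CD40 and 93.8 and 123 CPM under isotype (adjusted p = 0.484), and Cxcl10 at 221 and 16.8 CPM against 143 and 321 CPM (adjusted p = 0.850). Fos, an immediate early gene, stood at 1827 and 486 CPM against 1721 and 1005 CPM (adjusted p = 0.395). These 3 overlapped between the groups. Gbp2, H2-K1, Ccl5, C1qa and Hspa1a did not pass either (adjusted p from 0.433 to 1.000). C1qa is capped by the rule, so its outcome supports nothing. Ccl17, with 35 UMIs in all, was too low to be tested.

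The calls depended on the 2 CD40 replicates together. Without the first, 2 genes passed, and without the second 3. Removing hashtag doublets left 22 genes, of which 20 were among the 47, and all 47 kept their direction there. With RLE scaling in place of TMM the split was 13 higher and 32 lower.

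**Figure D3:**
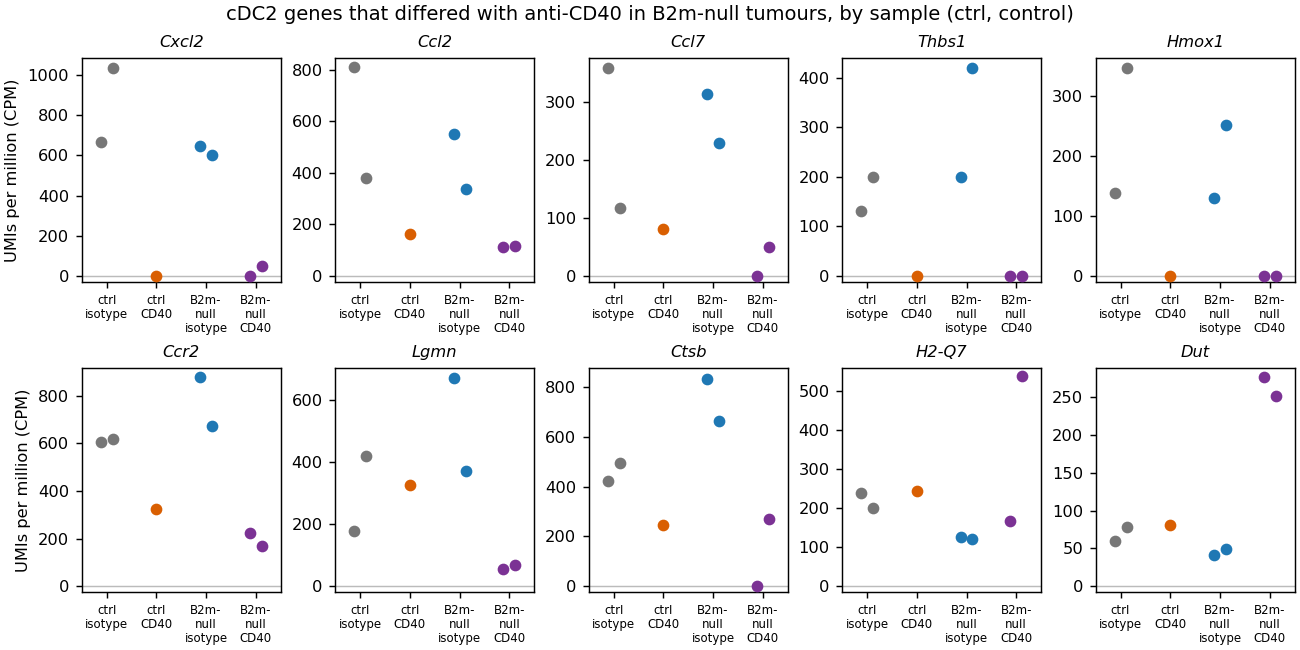
Level of 10 genes in the cDC2 of each sample, in CPM on a linear axis, by group, with 1 point per lane or pool. Cxcl2, Ccr2 and Thbs1 are lower in both B2m-null CD40 points than in both B2m-null isotype points, and Dut is higher.

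In control tumours the same comparison rests on 1 pool of 4 cells under CD40, in which 1 UMI is worth 81.5 CPM. The spread of that arm is borrowed from the other groups, so its p-values are no check on replicates. Only Gm42418 and Cxcl2 passed, or 0.0315% of the 6346 genes, and 539 genes had an unadjusted p under 0.05 in edgeR. Gm42418 stood at 7413 and 8347 CPM under isotype and 978 CPM under CD40 (log2 change -3.78 ± 0.52 SE, adjusted p = 1.88e-09). Cxcl2 stood at 665 and 1032 CPM under isotype and had no UMI under CD40, at least 3.49-fold lower (adjusted p = 0.00106). Cxcl2 lost this call in 5 of 16 settings, with adjusted p values of 0.170 and 0.104 without the first and the second B2m-null CD40 replicate and 0.0734 in DESeq2. Cd83, a marker of activated dendritic cells, stood at 67.2 and 78.3 CPM against 489 CPM, or 6 UMIs (adjusted p = 0.381). Kit stood at 54.7 CPM over the isotype cells and 489 CPM, also 6 UMIs (adjusted p = 0.259). Of the 6346 genes 3042 had no UMI in 1 of the groups, so the median log2 change of -1.82 describes the fit at 0 counts. The number of genes that passed ran from 1 to 39 as single replicates were left out, with 39 when the first control CD40 lane was left out and 1 cell remained. It was also 10 without the first B2m-null isotype lane.

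The 2 tumours were next compared under isotype, where cell numbers were highest. The interferon-inducible genes Ly6a, Isg15 and Iigp1 were lower in cDC2 of B2m-null tumours, and Pf4 and Lpl were higher. In all, 22 genes passed, or 0.347% of those tested, with 17 lower (0.268%) and 5 higher (0.0788%), and the median over all genes was -0.01. Of the 22, 3 are on the marker and pathway lists.

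Ly6a (ENSMUSG00000075602), which encodes the interferon-inducible surface protein Sca-1, stood at 717 and 946 CPM in control and 261 and 249 CPM in B2m-null tumours. The 2 groups did not overlap (log2 change -1.70 ± 0.30 SE, adjusted p = 3.63e-05). It passed in all 18 settings tried, with adjusted p values up to 0.0364. Isg15 (ENSMUSG00000035692), a ubiquitin-like interferon-stimulated protein, stood at 392 and 235 CPM against 114 and 92.5 CPM (log2 change -1.61 ± 0.32 SE, adjusted p = 0.000265). Iigp1 stood at 127 and 121 CPM against 16.3 and 30.8 CPM (log2 change -2.23 ± 0.43 SE, adjusted p = 0.000232). Isg15 and Iigp1 each passed in 14 of 18 settings. Isg15 had an adjusted p of 0.259 without control isotype replicate 1, 0.170 without B2m-null isotype replicate 2, 0.0743 without B2m-null CD40 replicate 1 and 0.941 in DESeq2. Iigp1 had 0.061 without B2m-null isotype replicate 1, 0.0772 with thinned members, 0.127 with the mouse as the unit and 0.464 in DESeq2.

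Isg15 was the 1 of 21 type I interferon-stimulated genes to pass, but 20 of the 21 estimates were negative, with a median of -0.78. Over all genes tested 51.2% of estimates were negative. Iigp1 was the 1 of 14 genes of the interferon-gamma list, with 12 negative and a median of -0.80. Irf7, a transcription factor of this response, stood at 161 and 164 CPM against 114 and 70.7 CPM, without overlap (adjusted p = 0.666). None of the 22 MHC class I genes passed, and 15 of their estimates were negative with a median of -0.16. Il1b stood at 650 and 569 CPM in control and 281 and 354 CPM in B2m-null tumours, without overlap, but did not pass (adjusted p = 0.249). Among dendritic genes Ciita, Sirpa and Ccr2 had log2 changes of 0.31 ± 0.30, 0.40 ± 0.30 and 0.34 ± 0.29 (SE), none of which passed (each adjusted p = 1.000). Cxcl9 stood at 217 and 160 CPM against 93.8 and 123 CPM, without overlap, but did not pass (adjusted p = 0.791). Cd274, H2-K1, Ccl5, Cxcl10, Gbp2, Itgax, Kit, C1qa, Hspa1a and Fos did not pass (each adjusted p = 1.000). C1qa is capped by the rule, so its outcome supports nothing.

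The same genes were lower in the rest of the B2m-null isotype lanes. In all other barcodes Ly6a stood at 742 and 553 CPM in control and 275 and 239 CPM in B2m-null tumours, Isg15 at 387 and 250 CPM against 142 and 124 CPM, and Iigp1 at 213 and 133 CPM against 56.3 and 65.5 CPM. The part of free RNA from those cells in the cDC2 values was not tested.

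The Isg15 promoter is shown because that gene was the interferon-stimulated gene called by its list (RefSeq, GRCm38.p6, chr4:156200769-156201068, minus strand, 5′ to 3′ along the gene).

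Isg15 promoter: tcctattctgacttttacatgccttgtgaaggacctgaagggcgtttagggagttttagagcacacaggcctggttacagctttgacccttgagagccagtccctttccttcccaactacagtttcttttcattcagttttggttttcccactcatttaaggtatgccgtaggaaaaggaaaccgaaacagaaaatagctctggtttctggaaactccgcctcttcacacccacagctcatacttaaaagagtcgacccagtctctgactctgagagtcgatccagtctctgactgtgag

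The gamma-activated site had no match in this window either, which says only that these letters are not in it. Of 7 genes matched to the table by symbol, 4 were found.

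The 5 genes that were higher in cDC2 of B2m-null tumours are Pf4, Lpl, Mrc1, Cd209e and Mmp13. Pf4, a chemokine of platelets and macrophages, stood at 56.0 and 35.6 CPM in control and 200 and 381 CPM in B2m-null tumours (log2 change 2.71 ± 0.36 SE, adjusted p = 4.92e-10). Lpl stood at 41.1 and 74.7 CPM against 408 and 152 CPM (log2 change 2.19 ± 0.36 SE, adjusted p = 3.40e-06). Mrc1 stood at 93.4 and 125 CPM against 342 and 181 CPM (adjusted p = 0.0493), and the lectin Cd209e at 26.1 and 32.0 CPM against 143 and 92.5 CPM (adjusted p = 0.0125). The groups did not overlap for any of these 4. Cd209e is of the lectin family of Cd209a, a gene of the rule, and reads of such near copies may be split. Pf4 kept its call in 15 of 18 settings tried, Lpl in 10 of 17, Cd209e in 7 of 17 and Mrc1 in 5 of 18. Among members with C1q at 0 the log2 change of Lpl was 0.07 (adjusted p = 0.999) and that of Pf4 1.54 (adjusted p = 0.226). Without B2m-null isotype replicate 1, Lpl, Cd209e and Mrc1 had adjusted p values of 0.314, 0.539 and 0.997. Mmp13, a collagenase, also passed, but 79 of its 84 UMIs in B2m-null tumours came from replicate 2.

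Pf4 was higher in all other barcodes too, at 923 and 1309 CPM in control and 2034 and 2539 CPM in B2m-null tumours. Summed over 13 macrophage markers the cDC2 held 1005 and 758 CPM in control and 1374 and 920 CPM in B2m-null tumours, ranges that overlap. C1qa, C1qb and C1qc are among these markers and are capped by the rule. The part of macrophage RNA in the higher genes was not tested.

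Other genes that were lower include the tetraspanin Cd63, at 243 and 267 CPM against 61.2 and 112 CPM (adjusted p = 0.00428), and Tm4sf1, at 127 and 92.5 CPM against 4.08 and 45.3 CPM (adjusted p = 0.0187). Cd63 kept its call in 12 of 18 settings and Tm4sf1 in 8 of 16. In all other barcodes Cd63 was not lower, at 515 and 655 CPM against 672 and 678 CPM. Several of the 17 lower genes are known from melanocytes or stroma, among them Slc45a2, Slc24a5, Rab38, Fbln2, Loxl1 and Thbs2, named after their values were seen. Some rest on 1 lane: all 21 UMIs of Slc45a2 came from control isotype replicate 1 and all 17 of Loxl1 from replicate 2. Slc24a5 had 19 and 2 UMIs in the 2 control isotype lanes and Rab38 17 and 3. Fbln2, with 14 and 11 UMIs, and Thbs2, with 16 and 6, were seen in both. The 7 melanoma markers summed to 1643 CPM in the cDC2 of control isotype replicate 1 and to 35.6 to 44.9 CPM in the other isotype lanes. The 8 fibroblast and endothelial markers summed to 1366 CPM in replicate 2 and to 94 to 263 CPM elsewhere under isotype. The part of such cells in the lower genes was not tested.

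Without 1 lane the number of genes that passed ran from 4 to 38. It was 4 and 6 without the first and the second B2m-null CD40 replicate, which enter by the shared estimate of spread. It was 14 and 11 without the first and the second B2m-null isotype replicate, and 38 without control isotype replicate 2. DESeq2 called 1 gene, and 8 passed once hashtag doublets were removed.

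**Figure D4:**
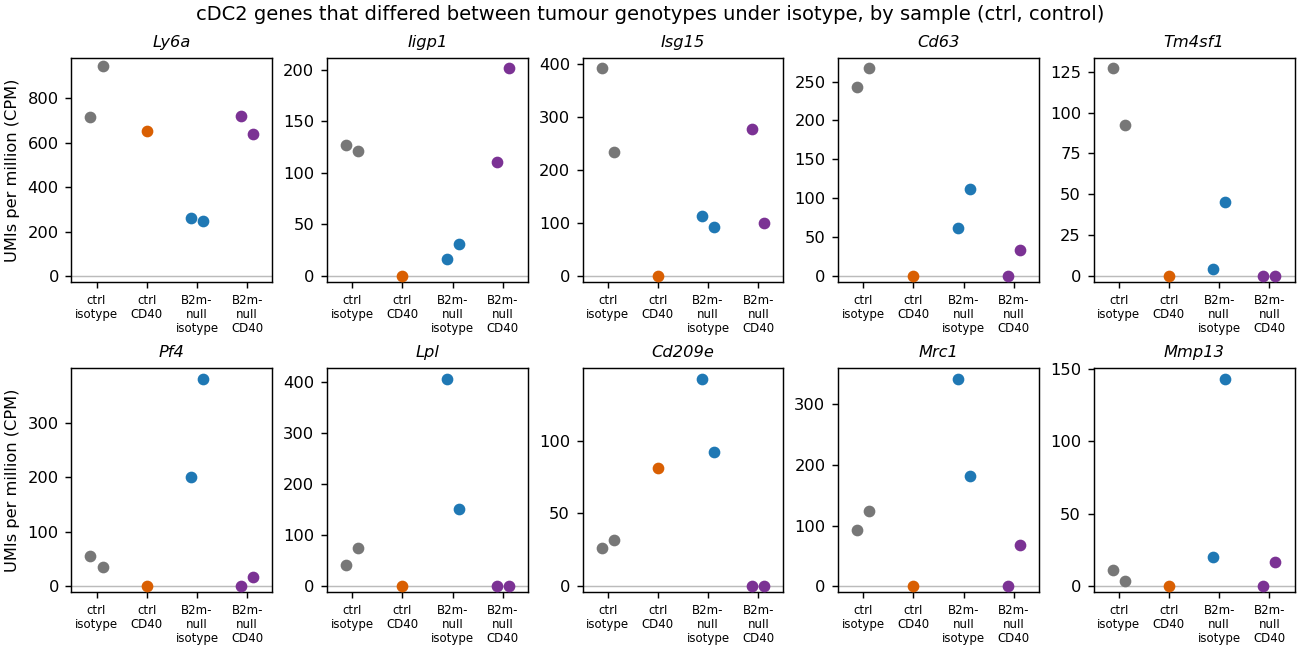
Level of 10 genes in the cDC2 of each sample, in CPM on a linear axis, by group, with 1 point per lane or pool. Ly6a, Iigp1 and Isg15 are lower in both B2m-null isotype points than in both control isotype points, and Pf4, Lpl and Cd209e are higher.

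Under CD40 the 2 tumours were compared on 17 cells against 4. No gene passed in edgeR (0.0% of 6346, with 399 at an unadjusted p under 0.05) or in DESeq2 (154 at an unadjusted p under 0.05). With thinned members 12 passed, with a lectin sum of at least 2 it was 1, and without control CD40 replicate 1, which left 1 cell in that arm, 28. Ly6a stood at 720 and 637 CPM in B2m-null and 652 CPM in control tumours, set beside 717 and 946 CPM in control isotype and 261 and 249 CPM in B2m-null isotype. In B2m-null tumours the 2 antibodies did not overlap for Ly6a, but the difference did not pass (log2 change 1.21 ± 0.36 SE, adjusted p = 0.0939). Isg15 had no UMI in the control pool, where 3 UMIs correspond to 244 CPM, against 277 and 101 CPM. The genes with the lowest p, which did not pass, were Psme2, Lgals1, mt-Atp6, H2afj, 2900097C17Rik and Gcnt2, with adjusted p values of 0.405 to 0.415.

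The last comparison asked whether the CD40 effect on a gene differed between tumours. No gene passed the interaction test in edgeR (0.0% of 6346, with 432 at an unadjusted p under 0.05), while DESeq2 called 11. The lowest p values belonged to Ubb, Iigp1, Psme2, H2afj, 2900097C17Rik and Plet1, at adjusted p values of 0.158 to 0.327. Iigp1 had no UMI in control CD40, where 3 UMIs correspond to 244 CPM, above the 127 and 121 CPM of control isotype, so that a fall was not detectable at this depth. Control CD40 enters this test as 1 pool of 4 cells.

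**Figure D5:**
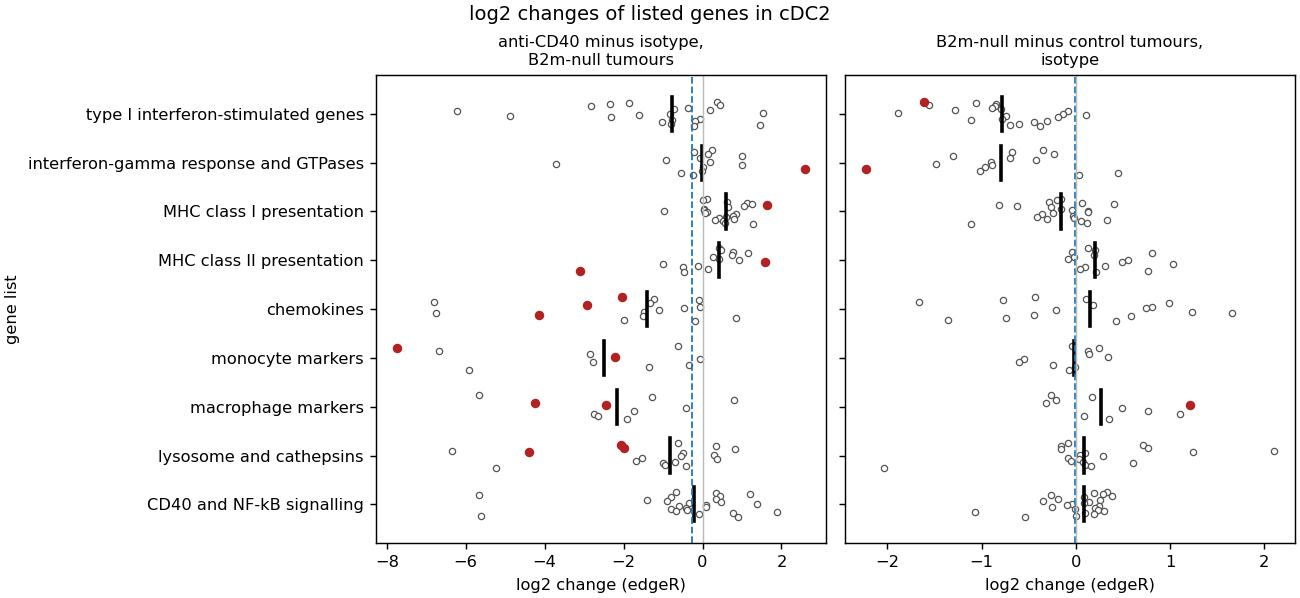
Estimated log2 change of every tested gene in 9 lists, with filled points for genes that passed, bars for list medians and a dashed line for the median of all genes; estimates of genes with no UMI in a group depend on the fit. The left panel shows the CD40 effect in B2m-null tumours and the right panel the tumour difference under isotype. The macrophage list holds C1qa, C1qb and C1qc, which are capped by the rule. The MHC class I list lies above the median of all genes in the left panel, with 21 of 22 estimates positive (37.8% over all genes). The type I interferon list lies below the median of all genes in the right panel, with 20 of 21 negative (51.2% over all genes).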

How the data were processed

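Single-cell 3' version 3 libraries of CD45-selected tumour cells were made on 8 lanes, per the labels. The deposited values are raw UMI counts per gene and barcode, with hashtag counts in the same files. Per the submitters' processing notes, Cell Ranger 3.0.0, bcl2fastq 2.20.0.422 and the mm10 build were used. Each matrix lists 32285 genes.

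Barcodes with 200 or more genes and no more than 10% mitochondrial UMIs were kept. Counts of the cDC2 were summed per lane, the 2 control CD40 lanes as 1 sample, and tested with edgeR 4.0.16 (R 4.3.3; TMM, filterByExpr, robust quasi-likelihood, Benjamini-Hochberg adjusted p under 0.05). Shares were tested over mice by exact permutation (scipy 1.17.1). No caller of doublets other than hashtags was used. Mice were assigned with at least 20 hashtag counts, a posterior of at least 0.9 in a Gaussian mixture with 1 covariance for all hashtags (scikit-learn 1.9.0), and a doublet limit of 2.5 SD. That mixture was chosen after the data had been seen. Where the labels name 3 hashtags for a pool, 6 files have 2 and the others 3. The fit was tested on simulated data. Alternatives were DESeq2 1.42.0, RLE scaling, no low-count filter, stricter membership, thinned counts, mice as units and single replicates left out.

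Named genes were, per comparison, up to 8 per direction among those past the threshold with at least 50 UMIs and no overlap between samples, up to 4 per list and direction, and a fixed set given in at least 1 comparison or description with or without a call. A gene of that set is not reported here. Up to 20 leading genes were ranked by the ratio of pooled CPM, a reading chosen after the data had been seen. Members and lists were chosen with earlier results of these data known. P-values over mice or pools measure the spread between those units.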

Additional observations from a re-analysis of the deposited data

How the results depend on the processing

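All 47 genes that passed for CD40 in B2m-null tumours kept their direction in each alternative except without B2m-null CD40 replicate 2, where 45 did. Of the 47, 36 still passed with RLE scaling, 44 with no low-count filter, 25 with the stricter cell filter, 20 without hashtag doublets, 14 with C1q at 0 and 9 under DESeq2 or with thinned members. The log2 changes of H2-Q7 and H2-Oa turned, to -0.085 and -0.20, without B2m-null CD40 replicate 2, and reached 2.13 and 2.11 without other lanes. No other gene that passed changed sign where it was tested, and signs were counted only for genes that passed. The counts for the control CD40 effect, the B2m-null CD40 effect and the isotype genotype difference were 5, 14 and 1 with DESeq2, 1, 22 and 8 without hashtag doublets and 18, 9 and 11 with members thinned to 2000 UMIs. DESeq2 called 11 genes for the interaction. Thinned members gave 12 for genotype under CD40 and 4 for the interaction. A lectin sum of at least 2 gave 27 for CD40 in B2m-null tumours, 1 for genotype under CD40 and 1 for the interaction. C1q at 0 gave 19 for CD40 in B2m-null tumours. For CD40 in control tumours, no low-count filter gave 5 and the stricter cell filter 1. With the mouse as the unit, 3 genes passed for genotype under isotype among 1498 tested. The cause of these shifts was not tested.

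With single replicates left out, the counts ran from 1 to 39, 2 to 49, 4 to 38, 0 to 28 and 0 to 26 for the CD40 effect (control, then B2m-null), the genotype difference (isotype, then CD40) and the interaction. Where an arm kept 1 sample, it was assumed to vary like the other groups. The 28 and 26 were without control CD40 replicate 1. Share differences in percentage points ran from -0.522 to -0.344, -0.617 to -0.560, 0.119 to 0.297 and 0.0239 to 0.0808 in that order of the first 4. Thinning to 1000 UMIs before the rule gave -0.419 for CD40 in B2m-null tumours and 0.276 for genotype under isotype, at an adjusted p of 0.0476 each. For the first, the exact p stayed at its minimum of 0.0159 and only the adjustment over the 4 comparisons moved.

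Same-numbered replicates deviated together little (correlations of 0.136, -0.0074 and 0.0361). These values do not show whether they share a batch, and the B2m-null CD40 lanes among them hold 6 and 11 cells. In the B2m-null groups, 46.1% (isotype) and 36.3% (CD40) of other barcodes had no hashtag in replicate 1. In replicate 2 it was 10.5% and 2.75%. With a replicate block, 48 genes passed for CD40 in B2m-null tumours and 24 for genotype under isotype. No block was possible for comparisons with control CD40, which is 1 pool.

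Depth limits the CD40 groups most: 4 and 17 cells, of which 3 UMIs equal 244 and 38.6 CPM. Hashtags missed 60.2% of cDC2 in B2m-null isotype replicate 1 and 3 of 6 in B2m-null CD40 replicate 1, so shares by mouse rest on the remainder there.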
